A study of Mus musculus with 6 samples.

Results

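The cells described here were 108 of 2114 CD45+ CD11b+ cells from mouse visceral fat, 5.11% of the cells kept, and were chosen by the transcripts of 4 activation genes. A cell entered when it held at least 5 unique molecular identifiers (UMIs, each marking 1 captured transcript) of Sowahc, Ptgs2, Il6 and Nr4a3 added together. It also had to hold fewer than 3 UMIs of Ear2, fewer than 4 of Cd209f, Cd209g, Cd209d and Cd163 together, fewer than 3 of Cd209a, fewer than 8 of Gpnmb, Mmp12, Rnf128, Cpe and Atp6v0d2 together, and fewer than 6 of Col3a1 and Col1a2 together. These 108 are called the gated cells below, and the thresholds were set on measured UMIs of the same libraries. The working name for them was activated macrophages expressing Ptgs2 and Il6.

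Epididymal fat was minced, digested with warm collagenases under shaking, stained in the cold and sorted for CD45, which all leukocytes carry, together with the myeloid integrin subunit CD11b. Single-cell RNA libraries came from 3 samples on a control diet and 3 on a diet labelled HFD, with 986 and 1128 kept cells. The labels give the diet only, with no strain, sex, age, time on the diet or animal number. Separate animals are not named, so the p-values below speak of variation among 6 samples that could be technical in origin.

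Macrophages that sense microbial products, dying cells or cytokines switch on fast genes through NF-kB, AP-1 and CREB, among them Ptgs2, which encodes cyclooxygenase-2 and starts prostaglandin synthesis, and Il6, which encodes the cytokine interleukin-6. Nr4a3 encodes an orphan nuclear receptor of the immediate early class, and Sowahc a protein with ankyrin repeats. In adipose tissue, Il6 is made by macrophages and by stromal cells. Enzymatic digestion at body temperature is itself known to switch on immediate early and heat shock genes, so genes of both kinds were measured side by side.

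The sequences next to the starts of 3 of the 4 selection genes are shown because they carry the letters of sites for these factors. They are taken from RefSeq on build GRCm38.p6, all on the plus strand. Windows ran from 250 bases before to 50 bases after each start, and both strands were read for a form of the NF-kB site (GGG, 2 bases of any kind, then TTTCC) and for TGACGT, the core of the cAMP response element. Capitals mark the matches. The Il6 line is chr5:30012864-30013113 and the Nr4a3 line chr4:48045055-48045304, both ending at the base before the start, and the Ptgs2 line is the stretch chr1:150100031-150100060 around its match.
Il6: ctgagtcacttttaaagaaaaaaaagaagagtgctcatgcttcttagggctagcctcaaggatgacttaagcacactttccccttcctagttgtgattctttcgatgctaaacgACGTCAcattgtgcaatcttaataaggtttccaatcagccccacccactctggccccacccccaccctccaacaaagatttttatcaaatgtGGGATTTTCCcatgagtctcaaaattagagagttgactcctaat
Nr4a3: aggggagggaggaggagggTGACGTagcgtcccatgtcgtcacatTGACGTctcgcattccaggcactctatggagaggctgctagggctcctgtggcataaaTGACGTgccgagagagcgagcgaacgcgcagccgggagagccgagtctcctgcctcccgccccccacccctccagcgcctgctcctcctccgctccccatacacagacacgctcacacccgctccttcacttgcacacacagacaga
Ptgs2: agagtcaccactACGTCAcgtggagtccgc
The NF-kB match of Il6 lay 44 to 35 bases before the start, and a match of the cAMP element core, read on the minus strand, 136 to 131 bases before it. Nr4a3 held 3 matches of the core, at 231 to 226, 205 to 200 and 147 to 142 bases before its start. Ptgs2 held 1 match of the core, on the minus strand, 13 to 18 bases after its annotated start, and Sowahc matched neither motif in its window. Over 32851 promoter windows, 1.63% held the NF-kB letters, 7.51% held the core and 0.201% held 3 or more matches of it. A match is a run of letters and was not tested as a binding site.

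Cell barcodes were shared widely between the deposited matrices. The 5511 deposited entries carried only 2195 distinct barcodes, and 51.1% of kept cells had a barcode that also stood in another sample. Each barcode was therefore kept only where it had most UMIs. Of the gated cells, 61 (56.5%) had such a shared barcode and 24 stood in all 6 matrices. When every entry was left in place, 156 entries passed the gate, and 48 of these were not the largest entry of their barcode. Total counts per sample ran from 4477100 to 6992602 UMIs.

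All 4 selection genes contributed, but unequally. Ptgs2 had a UMI in 88 of the 108 gated cells (81.5%, exact Clopper-Pearson 95% interval 72.9 to 88.3) and supplied 475 UMIs, 44.3% of the 4 genes' total. Sowahc had a UMI in 77 cells (71.3%), Nr4a3 in 63 (58.3%) and Il6 in 36 (33.3%, interval 24.6 to 43.1). These shares were fixed in part by the gate and are a description, counted in UMIs and not per transcript length.

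Il6 was the most concentrated of the 4 genes. It supplied 236 UMIs, and 122 of them (51.7%) lay in 5 cells. Ptgs2 was the leading gene in 52 gated cells, Il6 in 17, Sowahc in 16 and Nr4a3 in 16, with ties in 7. Ptgs2 and Il6 were both present in 26 cells, so most gated cells did not show the pair named in the label at this depth. A total of 10 cells passed on a single gene, 52 held 2 of the genes, 34 held 3 and 12 held all 4. In 62 cells a single gene alone reached the threshold.

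Cells on either side of the threshold were alike in depth. The 26 cells with a marker sum of 4 had a median of 8190.5 UMIs, and the 27 gated cells with a sum of 5 had 7421. Interleukin-1 beta, encoded by Il1b, stood at 2442 CPM (UMIs of a gene scaled to a common total of all UMIs) just outside and 1553 CPM just inside. At a sum of 6 it was 2400 CPM, so this cytokine gene, which the gate did not use, showed no rise at the threshold.

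The exclusions removed most cells with these activation transcripts. Of 467 cells with 5 or more marker UMIs, 359 failed at least 1 exclusion and 161 failed 2 or more. Ear2 removed 204, the Cd209 and Cd163 group 126, Cd209a 107, the lipid-associated group 72 and the collagens 51. In control samples Ear2 took 176 and the lipid genes 13, whereas in HFD samples these numbers were 28 and 59. The gated cells are therefore the 23.1% of marker-rich cells that lacked the transcripts of other named myeloid and stromal programmes, rather than all cells with these genes.

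Il6 was not particular to the gated cells. Pooled over samples, its level was 229 CPM in the gated cells, 189 CPM in Ear2-gated cells and 312 CPM in the 214 collagen-gated cells, of which 40.7% held an Il6 UMI. A background was taken from 29 cells with at least 3 UMIs of lymphocyte genes and fewer than 5 C1q UMIs. Gated cells had been taken out of this class, which limited its marker counts in advance. Its highest marker sum was 3 UMIs. In these lymphocyte-gated cells, 0 of 29 had an Il6 UMI. This allows a share of up to 10.3% when 3 counts are taken as the limit, and 11.9% by the exact Clopper-Pearson bound. Ptgs2 had a UMI in 10.3% of these lymphocyte-gated cells. Their median depth was 3523 UMIs against 9183.5 in the gated cells, and intervals and limits cover counting error only. The Ptgs2 share in the gated cells was above that background, as the gate and the removal of gated cells from the background required.

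The macrophage label was borne out only in part. Csf1r, the receptor for macrophage colony-stimulating factor, had a UMI in 73.1% of the gated cells, against 20.7% of lymphocyte-gated and 24.8% of collagen-gated cells. Fcgr1, the high-affinity IgG receptor, was found in 36.1%, against 3.45% and 3.74%. The complement gene C1qb was found in 96.3% of the gated cells, but also in 88.3% of collagen-gated cells. Its share of cells therefore did not separate macrophages here, although its pooled level was 2714 CPM in the gated and 421 CPM in the collagen-gated cells.

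The gated cells were compared throughout with 402 cells that passed the same exclusions, held at least 5 C1q UMIs and stayed under the marker threshold. These are called the C1q+ cells. Their median sum of C1qa, C1qb and C1qc was 60.5 UMIs at a depth of 6769, whereas the gated cells, which did not have to carry C1q, had 13.5 at a depth of 9183.5. The 89 gated cells that reached 5 C1q UMIs had a median of 22 at a depth of 10620. Of 12 measured macrophage list genes, 0 were higher in the gated cells in all 5 samples compared below and 2 were lower. Over all genes measured, 5.28% were higher and 6.17% lower in this way, so a count of 0 higher in 12 shows nothing apart from them. The median log2 ratio of the 12 list genes was -0.53. Csf1r was pooled at 330 CPM in the gated and 560 CPM in the C1q+ cells, and Emr1 was found in 58.3% and 75.9%. Fcgr1 was found in 36.1% and 37.6%, and Lyz2 stood at 15972 and 15590 CPM. The list includes the C1q genes, and the part of the C1q requirement was not tested. Markers of other types were also present, counted as 3 or more UMIs of a list. For migratory dendritic cells they were found in 30.6% of gated and 8.96% of C1q+ cells, for monocytes in 58.3% and 28.9%, and for serous cavity macrophages in 33.3% and 20.6%. For type 2 dendritic cells the shares were 66.7% and 49.5%. These shares were counted at unequal depth. The summed type 2 dendritic list was 734, 624 and 803 CPM in the gated cells of control 1 to 3. It was 272, 1022 and 367 CPM in HFD 1 to 3. The C1q+ cells had 783, 771 and 907 CPM, and 406, 408 and 437 CPM. For monocytes the gated cells had 930, 1362 and 771 CPM, and 1233, 915 and 495 CPM, in that order. The C1q+ cells had 1430, 1658 and 752 CPM, and 277, 418 and 349 CPM. Fibroblast markers, at 70.4% and 67.7%, and B cell markers, at 45.4% and 43.8%, were about as frequent in both classes. The summed level of the B cell list was 438, 11043 and 47.7 CPM in the gated cells of control 1 to 3. It was 129, 417 and 482 CPM in HFD 1 to 3. The C1q+ cells had 14545, 958 and 389 CPM, and 597, 14759 and 12746.5 CPM, in that order. T and NK cell markers were found in 0.926% of gated and 4.48% of C1q+ cells. Neither class excluded lymphocytes. Of 12 neutrophil markers, Mmp8, Ly6g, Camp and Ltf had no UMI, and 1 gated cell held 3 of the list.

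Clustering all kept cells on 2000 variable genes placed the gated cells in 10 clusters. The clusters used the same transcripts as the gate, so they locate the cells and test nothing. The most gated cells, 38 (20 control, 18 HFD), lay in a cluster led by Chil3, Plac8, Ly6c2 and Cxcl9, of which the first 3 are on the monocyte list. There Ptgs2 stood at 659 CPM, Il1b at 3518 CPM and Il6 at 105 CPM. This was the cluster in which gated cells of both diets were about equal in number. A cluster led by Gdf15, Ms4a7 and Hpgd held 13 gated cells (3 control, 10 HFD), with a median of 116 C1q UMIs and Il6 at 43.1 CPM.

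Among clusters with 9 or more gated cells, Il6 was highest in those found mostly in control samples. A cluster led by Lyz1, Ear2 and Retnla held 9 gated cells, all control, with Il6 at 1388 CPM. A cluster led by Saa3, Slpi and Alox15, which shares Saa3, Alox15, Serpinb2, Prg4 and Cd5l with the list for serous cavity macrophages, held 10 (9 control, 1 HFD), with Il6 at 728 CPM. Saa3, an acute phase protein gene, reached 27345 CPM there. The 11 gated cells of a cluster led by Ccr7, Fscn1 and Ccl22, genes of migratory dendritic cells, had Il6 at only 8.03 CPM and Nr4a3 at 409 CPM. In the 10 cells of a cluster led by Ccl17, Klrd1 and Cd209a, Nr4a3 was 408 CPM and Il6 45.3 CPM. A cluster led by the stromal genes Dcn, Col3a1 and Mgp held 3 gated cells, which carried 25 Il6 UMIs between them.

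The highest pooled CPM of Ptgs2 came with the lowest depth, where the gate itself asks for a high summed CPM of the 4 genes, since 5 UMIs are a larger part of a shallow cell. The 12 gated cells of a cluster led by Retnla, Areg and Fosl2 were all from control samples, 10 of them from control 3, and carried Ptgs2 at 1576 CPM. Their median was 2144 UMIs with 5.64% mitochondrial UMIs, against 9582.5 and 1.87% in the Chil3 cluster. The gated cells of the Ear2 cluster were also shallow, with a median of 3123 UMIs where the whole cluster had 8502. Because exclusions were set on raw UMIs, a shallow cell passes them more easily. The part of depth in these 21 cells was not tested, and counts without them are given below.

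**Figure D1:**
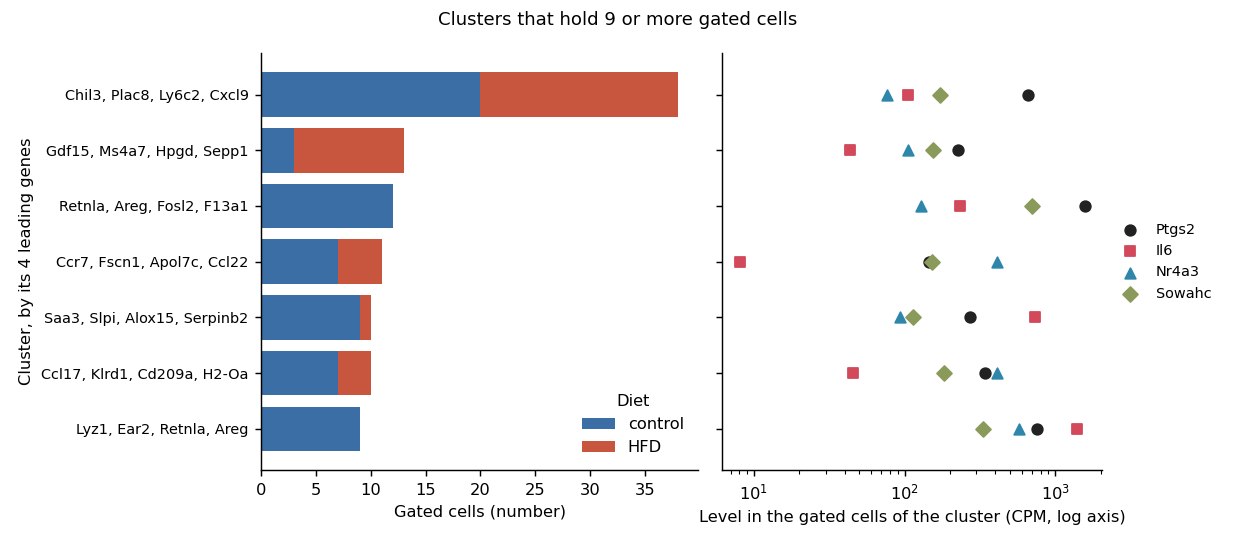
Number of gated cells in each cluster with 9 or more of them, by diet (left), and pooled level of the 4 selection genes in those cells in CPM on a log axis (right). The Chil3 cluster holds 38 cells, the Retnla and Lyz1 clusters hold control cells only, and Il6 (squares) spans 8.03 CPM in the Ccr7 cluster to 1388 CPM in the Lyz1 cluster.

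Beyond the selection genes, the gated cells carried more transcript of NF-kB feedback genes and of some inflammatory mediators than the C1q+ cells. Since the gate chose them on these transcriptomes, the comparison is a description with no test, over the 5 samples with at least 10 gated cells, which leaves out HFD 2 with its 7. Of 5059 genes with 20 CPM or more, 5.28% were higher in the gated cells in all 5 samples and 6.17% lower. The median log2 ratio of all genes was 0.01.

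NF-kB feedback genes encode the inhibitors and targets that this factor induces. Of 26 measured members, 9 were higher in all 5 samples and 0 lower, with a median log2 ratio of 0.59. Nfkbia, the inhibitor that retains NF-kB in the cytoplasm, averaged 3049 ± 398 CPM (SD, n = 5) in the gated and 2014 ± 291 CPM in the C1q+ cells. Tnfaip3, the deubiquitinase A20, averaged 466 ± 171 against 274 ± 57.9 CPM, and Relb, a subunit of the factor, 149 ± 67.8 against 71.5 ± 25.8 CPM. The other 6 were Tnfaip2, Traf1, Sod2, Cflar, Clec4e and Plek. The summed level of the list was 6374 to 8352 CPM over the gated cells of the 6 samples and 4615 to 6013 CPM over the C1q+ cells. These ranges did not overlap, and with only the 89 gated cells of 5 or more C1q UMIs the range was 6237 to 8424 CPM.

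Cytokine genes other than Il6 had a median log2 ratio of 0.66, but only 1 of 12 measured list genes (8.33%) was higher in all 5 samples, a share near the 5.28% of all genes. Il1b was 2047, 2525 and 3020 CPM in the gated cells of control 1 to 3, and 2322, 2475 and 950.3 CPM in HFD 1 to 3. It exceeded the C1q+ cells of the same sample everywhere except HFD 3, where these stood at 1020 CPM. A total of 93.5% of gated and 67.2% of C1q+ cells held an Il1b UMI, against 31.0% of lymphocyte-gated cells. Il1rn, the antagonist of the interleukin-1 receptor, averaged 392 ± 277 against 114 ± 64.9 CPM and was the gene higher in all 5 samples.

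Tnf, the gene of tumour necrosis factor, reached 1233 CPM in HFD 1 against 254 CPM in the C1q+ cells, but in control 1 it was 296.7 against 327 CPM. Il10, an anti-inflammatory cytokine gene, did not separate the classes, at 50.2 ± 45.8 against 65.9 ± 33.4 CPM. Irg1, the itaconate enzyme gene of activated macrophages, had a UMI in 15 gated cells only, and 1 of them held 47.6% of its UMIs.

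Among 22 measured chemokine list genes, Cxcl10, Cxcl1 and Ccrl2 were higher in all 5 samples and Ccl2 was lower. Cxcl10, an interferon-induced ligand of CXCR3, averaged 533 ± 371 against 114 ± 55.0 CPM, and 1 cell held 26.2% of its UMIs. Ccl2, the main monocyte attractant, averaged 1147 ± 441 against 2216 ± 1267 CPM. Cxcl2, a neutrophil attractant, was abundant in both classes, at 5060 ± 1413 and 4440 ± 1188 CPM. In the interleukin-6 response list, Socs3, Pim1 and Cebpb were higher in all 5 samples out of 13 measured genes.

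The strongest differences outside the selection genes were taken by ratio among genes of 50 CPM or more. Of 2133 such genes, 160 (7.5%) were higher in the gated cells in all 5 samples. Fam26f led at 5.01-fold, ahead of Slc7a11, the cystine transporter of the oxidative stress response, at 4.88-fold (72.7 ± 48.3 against 14.9 ± 4.10 CPM). Thbs1, which encodes thrombospondin-1, was 4.13-fold higher. Interferon-induced Irgm1, Ifi205 and Gbp3, the survival genes Bcl2a1c and Cflar, and Clec4e, the receptor Mincle, were also among the 20 highest ratios. Of 2107 genes, 158 (7.5%) were lower, led by Cd79b, a B cell receptor chain, at 0.157-fold. Gpr34, Fcrls and Folr2, genes of tissue-resident macrophages, followed, with Folr2 at 151 ± 68.1 against 409 ± 82.6 CPM.

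Genes of resident macrophages were lower as a group. Of 15 measured list members, 8 were lower in all 5 samples and 0 higher, with a median log2 ratio of -0.93. These were Lyve1, Folr2, F13a1, Gas6, Sepp1, Stab1, Maf and Igf1. Cells with Cd209 and Cd163 transcripts were excluded from both classes, but only the C1q+ cells had to carry C1q. The part of that requirement in this difference was not tested. Of 18 lipid-associated genes, 5 were lower and 0 higher.

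Immediate early genes, which respond to tissue handling as well as to inflammatory signals, split. Of 32 measured members, 8 were higher in all 5 samples and 5 lower, with a median log2 ratio of 0.11. The higher ones included Nr4a1, a relative of Nr4a3, at 999 ± 387 against 636 ± 139 CPM, and the phosphatase gene Dusp2 at 403 ± 184 against 220 ± 36.0 CPM. The lower ones included the AP-1 subunit genes Fos, at 1662 ± 348 against 2228 ± 522 CPM, and Jun, at 545 ± 117 against 855 ± 128 CPM. The summed list was 20875 to 26350 CPM in the gated and 19296 to 24418 CPM in the C1q+ cells, ranges that overlapped, and was higher in the gated cells in 5 of 6 samples. It was higher in collagen-gated cells, at 27486 to 41052 CPM, and was 11735 to 18248 CPM in lymphocyte-gated cells.

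Heat shock genes were slightly higher in the gated cells. Of 15 measured members, 2 were higher in all 5 samples, Hspa8 by 1.17-fold and Hsp90ab1 by 1.21-fold, and 0 lower, with a median log2 ratio of 0.07. Hspa1a, the inducible Hsp70 gene, averaged 79.8 ± 35.3 CPM in the gated and 144 ± 77.8 CPM in the C1q+ cells. The summed list was higher in the gated cells in each of the 6 samples, from 3857 against 3777 CPM in control 1 to 5313 against 3704 CPM in HFD 3. Genes of the endoplasmic reticulum and integrated stress responses had a median log2 ratio of -0.02, with 1 of 13 higher and 2 lower.

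The lists were also counted at equal depth. Each cell was thinned to 3000 UMIs, which left out shallower cells and kept 92 gated and 360 C1q+ cells. The median was 22 against 15 UMIs for NF-kB feedback genes and 10 against 4 for cytokines. For immediate early genes it was 64.5 against 65.5, for heat shock genes 11 against 10, and for targets of cAMP signalling 16 against 11.

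The same cells were then ranked by each list and divided into a lower, a middle and an upper group of about equal size, and the share with at least 2 marker UMIs of 3000 was counted. With immediate early genes the shares were 10.2%, 23.7% and 23.5% from the lower to the upper group. With NF-kB feedback genes they were 9.52%, 19.7% and 28.1%, with cytokines 10.9%, 14.5% and 32.0%, and with heat shock genes 14.3%, 19.7% and 23.5%. With targets of cAMP signalling they were 6.80%, 19.1% and 31.4%, the widest range of the lists counted, and with chemokines 17.0%, 21.1% and 19.6%. These are counts over pooled cells and not over samples. Within the upper group by cytokines, 55.4% of control and 18.6% of HFD cells passed, and within the upper group by immediate early genes 42.9% and 12.4%. The overall share past the threshold already differed between the diets in these cells. Inflammation and the handling of tissue both move these genes, the cells were all digested alike, and the part of either in the gated state was not tested.

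**Figure D2:**
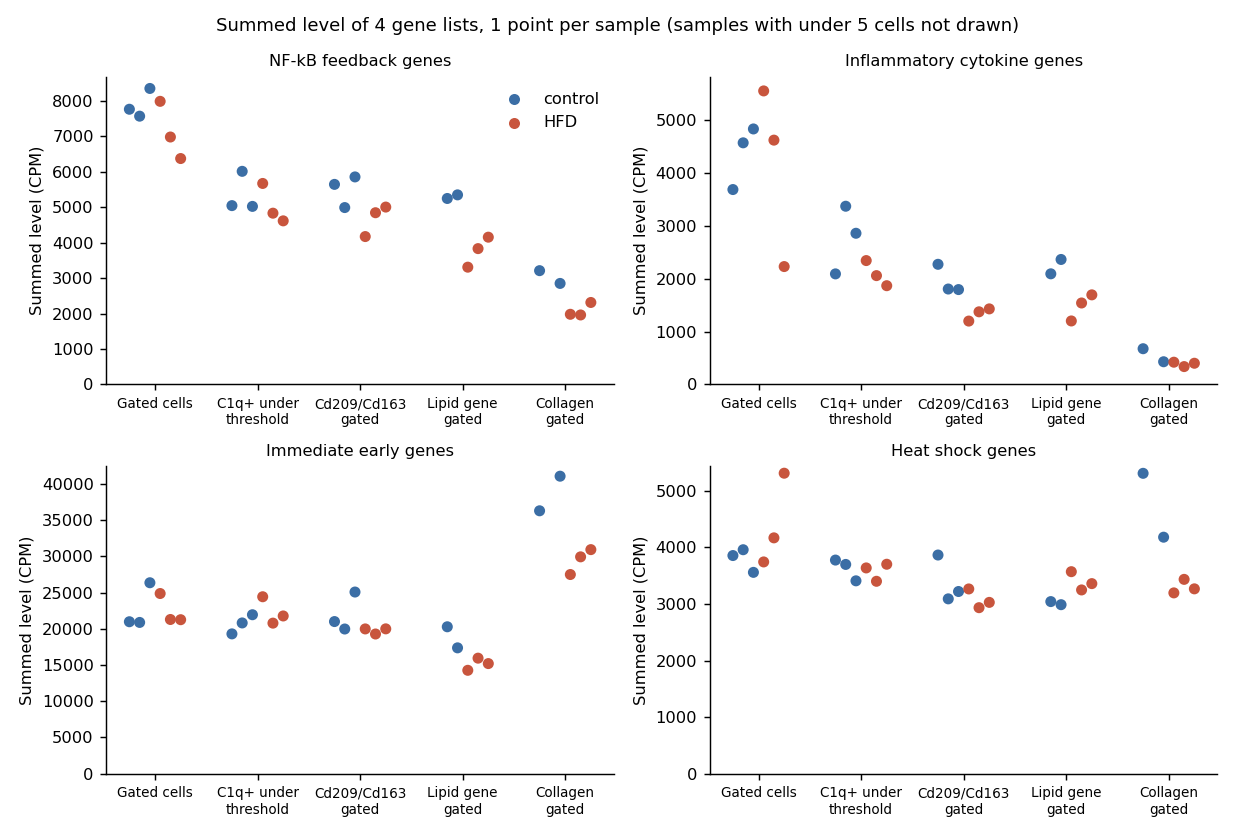
Summed level in CPM of 4 gene lists in the gated cells and in other classes, 1 point per sample and colour by diet. NF-kB feedback genes stand at 6374 to 8352 CPM in the gated cells, above all C1q+ points, while immediate early genes overlap between these classes and are highest in collagen-gated cells at 27486 to 41052 CPM.

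**Figure D3:**
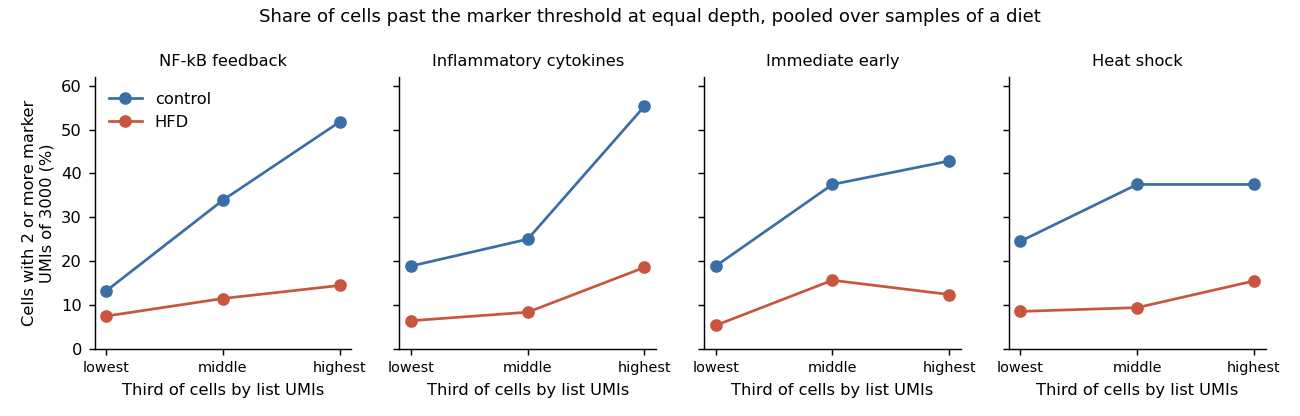
Share of gated and C1q+ cells at 3000 UMIs that hold 2 or more marker UMIs, for the lower, middle and upper group of cells ranked on each list, by diet and pooled over the samples of a diet. The overall share is higher in control cells, and the upper group by cytokines reaches 55.4% in control and 18.6% in HFD cells.

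The number of gated cells was then compared between diets, a property the gate did not use. There were 22, 26 and 22 gated cells in control 1 to 3, and 14, 7 and 17 in HFD 1 to 3. As shares of kept cells, in the same order, these were 5.67%, 10%, 6.51%, 3.09%, 2.37% and 4.47%. All control shares were above all HFD shares. The mean was 7.39 ± 2.30% (SD, n = 3) in control and 3.31 ± 1.07% in HFD samples, a difference of -4.08 points. The exact two-sided permutation test gave p = 0.1, the smallest value that 3 samples against 3 allow, so no p under the threshold of 0.05 was possible.

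Among C1q+ and gated cells together, gated cells made up 33.8%, 40% and 27.5% in control 1 to 3. In HFD 1 to 3 they made up 12.96%, 9.09% and 14.8%, again without overlap and with exact permutation p = 0.1. At an equal depth of 3000 UMIs, with 2 marker UMIs asked for, control 1 to 3 had 5.08%, 10.2% and 5.57%, and HFD 1 to 3 had 3.36%, 2.80% and 3.28%. A total of 16 gated cells, all from control samples, were too shallow to enter. Without the 5 exclusions the thinned shares were 38.7%, 34.3% and 30.0% against 9.42%, 12.6% and 14.5%.

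The diet difference depended on how shared barcodes were treated. With every entry left as deposited, control 1 to 3 had gated shares of 2.85%, 2.79% and 2.95%, HFD 1 to 3 had 2.99%, 2.03% and 3.69%, and the difference was 0.0437 points (exact permutation p = 0.9). At 3000 UMIs with entries as deposited, control 1 to 3 had 4.62%, 8.70% and 7.78%, HFD 1 to 3 had 6.70%, 6.35% and 6.18%, and the difference was -0.62 points (exact permutation p = 0.7). With each barcode in 1 sample but without the gated cells of the 2 shallow clusters the difference at full depth was -1.94 points (exact permutation p = 0.4), and without control 2 it was -2.78 points.

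**Figure D4:**
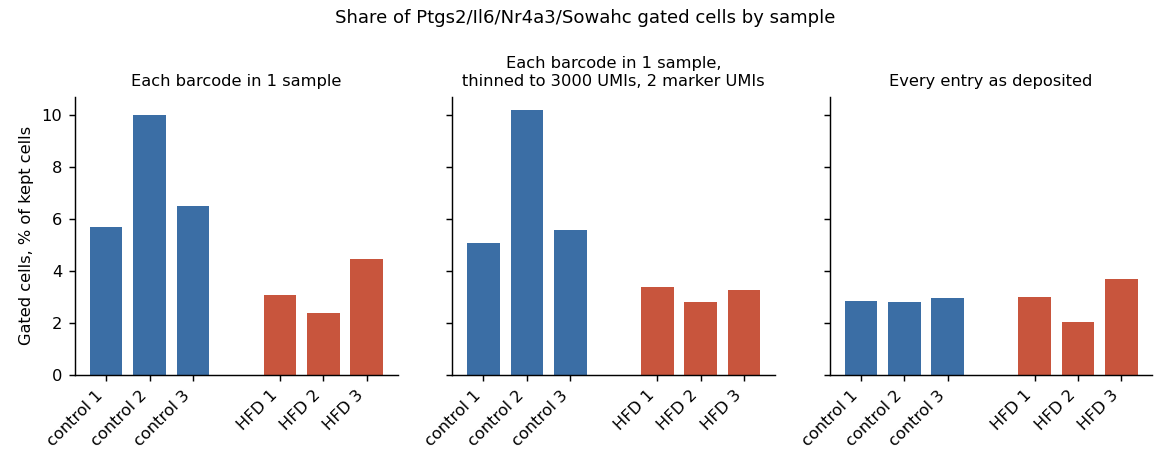
Gated cells as a percentage of kept cells in each sample under 3 ways of counting, with bars from 0. Control samples lie above HFD samples with each barcode in 1 sample, at full depth and at 3000 UMIs, and the groups overlap with every entry as deposited, where all shares lie between 2.03% and 3.69%.

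The levels of the selection genes in the gated cells were also set side by side for the diets. Il6 stood at 438, 347 and 342 CPM in the gated cells of control 1 to 3, and at 68.1, 0 and 13.3 CPM in HFD 1 to 3. The groups did not overlap. Nr4a3 was 236, 240 and 223 CPM in control and 98.3, 108 and 66.3 CPM in HFD samples, also without overlap. Ptgs2 was 337, 517 and 747 CPM against 431, 457 and 367 CPM, and Sowahc 186, 151 and 310 CPM against 212, 135 and 133 CPM, and both overlapped. The gate fixed the sum of the 4 genes from below in raw UMIs, so a deeper cell could pass at a lower CPM. The median depth of the gated cells was 10073, 10322.5 and 3974.5 UMIs in control 1 to 3. It was 9087.5, 13289 and 13167 UMIs in HFD 1 to 3. The median sum of the 4 genes was 8, 9.5 and 9 UMIs against 7, 6 and 7 UMIs. The part of depth in these levels was not tested.

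As a description, with no test because these genes chose the cells, the log2 fold change of Il6, HFD minus control, was -3.42 over the 5 samples with 10 or more gated cells. It was -4.86 without HFD 1, -2.47 without HFD 3 and -1.18 with every entry as deposited. The same value was -1.58 for Nr4a3, -0.45 for Ptgs2 and -0.36 for Sowahc. In the C1q+ cells under the threshold, Il6 was between 1.35 and 23.4 CPM.

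**Figure D5:**
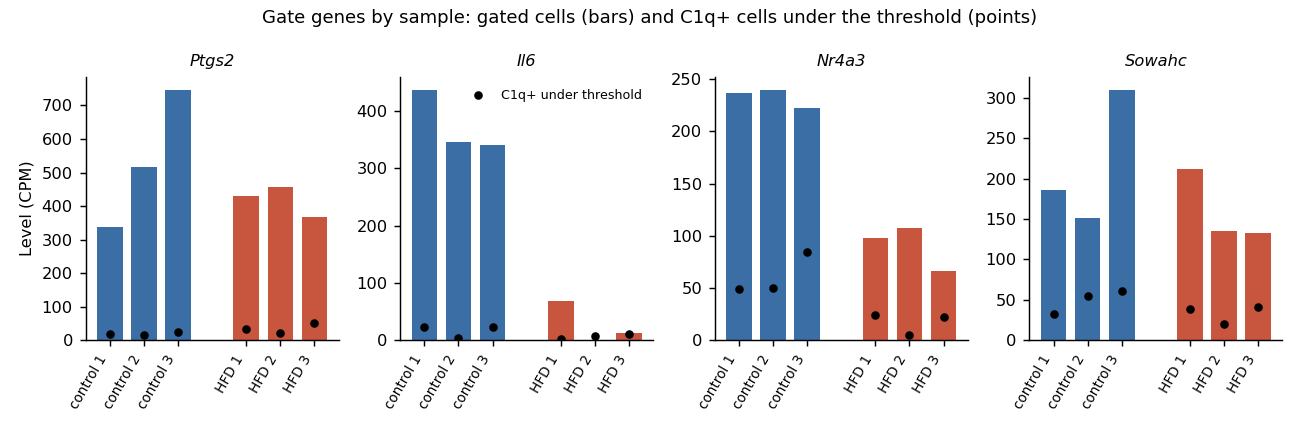
Level of the 4 selection genes in CPM by sample, as bars from 0 for the gated cells and points for the C1q+ cells under the threshold. Il6 and Nr4a3 bars are higher in each control sample than in each HFD sample, while Ptgs2 and Sowahc bars overlap between diets.

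Across all genes, none changed with diet in the gated cells at an adjusted p under 0.05. edgeR called 0 of 2694 genes (0%), and 310 (11.5%) had an unadjusted p under 0.05, with 139 higher and 171 lower in HFD samples. The smallest adjusted p was 0.11. DESeq2 called 22 of 1542 genes (1.43%), with 10 higher and 12 lower. In the C1q+ cells, which are 402 against 108, edgeR called 262 of 4573 genes (5.73%), 2.12% higher and 3.61% lower. Numbers of calls from sets of such unequal size cannot be set against each other. Of 220 genes called in the C1q+ cells and also tested in the gated cells, 202 had the same sign in both. The share with the same sign over all genes is not given, and both sums of a sample come from 1 library.

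The following values did not pass edgeR's test and are given for their size. Where groups are said not to overlap, here and for the selection genes above, the share of all genes without overlap is not given. With 3 samples against 3, full separation gives p = 0.1 in an exact permutation test. Il10 was 50.3, 77.5 and 111 CPM in control 1 to 3 and 7.56, 0 and 4.42 CPM in HFD 1 to 3 (log2 fold change -3.69 ± 0.71, adjusted p = 0.11 in edgeR). Its groups did not overlap, and it was found in 14 gated cells. Among clusters with 9 or more gated cells, Il10 was highest in the Lyz1 cluster (9 control, 0 HFD), at 453 CPM. The Saa3 cluster (9 control, 1 HFD) followed at 136 CPM, and diet and this mix of clusters were not tested apart. Ccl2 was 1574, 1229 and 1558 CPM against 673, 121 and 703 CPM (-1.12 ± 0.21, adjusted p = 0.11 in edgeR). Its groups did not overlap either, and with DESeq2 its adjusted p was 0.010. Ccl2 in the C1q+ cells was 3401, 3525 and 2260 CPM against 752, 1501 and 1140 CPM, also without overlap.

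Interferon-induced chemokine genes were high in 2 of the 3 HFD samples. Cxcl9 was 45.3, 62.7 and 0 CPM in control and 650.5, 0 and 451 CPM in HFD samples. Cxcl10 was 402, 236 and 223 CPM in control and 1097, 13.5 and 707 CPM in HFD samples. HFD 2, left out of the fit, was the low one in both, so the groups overlapped over all 6 samples. The Chil3 cluster, where Cxcl9 was highest at 457 CPM, held 9, 1 and 8 gated cells of HFD 1 to 3. It held 5, 11 and 4 of control 1 to 3, and the part of this mix was not tested. The edgeR log2 fold changes over 5 samples were 3.67 ± 0.64 and 1.59 ± 0.33, each with adjusted p = 0.11. Socs3, the feedback inhibitor of interleukin-6 signalling, was 267, 225 and 143 CPM against 613, 188 and 522 CPM (1.35 ± 0.30, adjusted p = 0.15 in edgeR).

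By list, 0 members were called for diet in the gated cells in any list with a tested gene, against 0% of all genes. At an unadjusted p under 0.05, 9 of 12 mitochondrially encoded genes were lower in HFD samples, with a median log2 fold change of -0.76. The share of mitochondrial UMIs per gated cell had medians of 2.42%, 2.38% and 4.76% in control 1 to 3 and 1.98%, 1.68% and 1.81% in HFD 1 to 3, highest in control 3, whose gated cells were also the shallowest at 3974.5 UMIs. Of 18 lipid-associated genes, 8 were higher and 0 lower at that level, with a median of 0.54. NF-kB feedback genes had a median of -0.45 (1 of 22 higher, 2 lower) and immediate early genes 0.00 (1 of 31 higher, 3 lower). Heat shock genes had 0.15 (2 of 11 higher, 0 lower). Of all 2694 genes, 139 were higher and 171 lower at that level, 11.5% in either direction, and their median was 0.01.

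Trem2, Fn1 and Itgam fall outside the rule for named genes and were chosen after their values were seen. Trem2, a lipid receptor gene of adipose macrophages that the gate did not use, was 15.1, 40.6 and 79.5 CPM in control and 408.5, 780 and 380 CPM in HFD samples. Fn1, which encodes fibronectin, was 1509, 1668 and 683 CPM against 106, 26.9 and 225 CPM. Itgam, which encodes the CD11b chain used for the sort, was 226, 299 and 167 CPM against 37.8, 80.7 and 66.3 CPM. None of the 3 overlapped between diets, a property whose share over all genes is not given, and each had adjusted p = 0.11 in edgeR. The C1q+ cells differed in the same directions, also without overlap. Trem2 there was 75.9, 246 and 217 CPM in control 1 to 3 and 670, 661 and 491 CPM in HFD 1 to 3. Fn1 was 637, 575 and 378 against 96.8, 274 and 91.2 CPM, and Itgam 129, 163 and 114 against 75.3, 94.7 and 60.4 CPM.

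Whether diet acted differently in the gated and the C1q+ cells was tested as an interaction with the sample as a block. HFD 2, with 7 gated cells, was left out of this fit. Of 3809 genes, 3 passed (0.0788%), 0.0525% higher and 0.0263% lower, and 167 (4.38%) had an unadjusted p under 0.05. Ccl22, a ligand of CCR4 made by dendritic cells and macrophages, was 277, 376 and 254 CPM in the gated cells of control 1 to 3 and 915, 108 and 141 CPM in HFD 1 to 3. In the C1q+ cells it was 192, 292 and 263 CPM against 237, 0 and 28.3 CPM. The difference of the diet effects was 1.79 ± 0.31 on the log2 scale (adjusted p = 0.037, edgeR), with lower levels in 2 of 3 HFD samples in both classes. A single cell held 27.4% of the Ccl22 UMIs of gated cells.

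Ccl5, a T cell and monocyte attractant, was 920, 395 and 1176 CPM in the gated cells of control 1 to 3 and 1823, 80.7 and 1353 CPM in HFD 1 to 3. In the C1q+ cells it was 1476, 646 and 981 CPM against 820, 467 and 347 CPM. The difference was 1.91 ± 0.31 (adjusted p = 0.037, edgeR), and 1 cell held 17.1% of the Ccl5 UMIs of gated cells. In HFD 2, left out of the fit, Ccl5 was lower in the gated than in the C1q+ cells, unlike HFD 1 and HFD 3. The other call, the antibody gene segment Igkv4-91, rested on control 2, where 1 cell held 97.8% of the segment's UMIs in gated cells. As deposited, the differences were 0.02 for Ccl22 and -0.02 for Ccl5, and without control 2 no gene passed. Ccl22 and Ccl5 both stand among the leading genes of the Ccr7 cluster of migratory dendritic cell genes. That cluster held 3, 2 and 2 gated cells of control 1 to 3 and 2, 1 and 1 of HFD 1 to 3. The part of such cells in these differences was not tested.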

How the data were processed

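The authors deposited 1 matrix of whole-number UMI counts per sample, with 33456 genes and no normalization. Cell Ranger, Seurat 2.4 and mm9 are named, without a role, in the submitters' processing notes. The rule that separated cells from empty droplets is not given there. Entries with at least 200 genes and at most 10% mitochondrial UMIs were kept, which removed 109 of 5511, and no doublet was removed. The gate, the gene lists and the tests were chosen with earlier results of these data known. Gated and C1q+ cells were summed per sample and tested with edgeR 4.0.16 (quasi-likelihood, TMM, filterByExpr, Benjamini-Hochberg) under R 4.3.3, with DESeq2 1.42.0 as an alternative. On simulated counts for the gated cells, 20% of genes changed by a log2 fold of 1 and 94% of those changed by 2 were recovered, over 2428 genes. Shares were compared with exact permutation tests in scipy 1.17.1. Clusters came from scanpy 1.11.5 and leidenalg 0.10.2 (2000 variable genes, 30 components, 20 neighbours, resolution 1). Genes were named by the 20 highest and 8 lowest ratios of gated to C1q+ cells, by the 4 smallest p of each activation list, and by calls. Of 470 list symbols, 467 were matched, 5 under older names.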

Additional observations from a re-analysis of the deposited data

Results flagged for a closer look

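Diet effects of 3 genes differed between the gated and the C1q+ cells in edgeR's interaction test over 5 samples, without HFD 2. The difference, HFD minus control in gated cells less the same in C1q+ cells, was 1.79 for Ccl22, 1.91 for Ccl5 and -9.52 for Igkv4-91 on the log2 scale. Of the Igkv4-91 UMIs in gated cells, 97.8% lay in 1 cell of control 2. Ccl22 and Ccl5 were found in 30 and 43 gated cells, and 1 cell held 27.4% and 17.1% of their UMIs. Both genes are among the leading genes of the Ccr7 cluster.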

How the results depend on the processing

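With every entry as deposited, the difference in gated share turned to 0.0437 points of kept cells and 0.978 points of C1q+ and gated cells together, Ccl5 turned to -0.0195, and calls were 1 for diet in gated cells, 125 in C1q+ cells and 27 for the difference between them. With DESeq2 they were 22, 204 and 1, with no filter on low counts 84, 437 and 19, and with a marker threshold of 4 they were 16, 260 and 7. Leaving out 1 replicate at a time gave 0 to 5 calls in gated cells, 133 to 243 in C1q+ cells and 0 to 21 for the difference. Fits with a lone HFD sample assume that it varies like the other samples. The shares differed by -4.94 to -2.78, -24.6 to -18.4 and, at equal depth, -4.73 to -2.18 points. Among the selection genes, given as descriptions, the change ranged from -0.76 to 0.0022 for Sowahc, the latter without HFD 3, and from -4.86 to -2.47 for Il6. Adding HFD 2 to the fits or keeping only gated cells with 5 C1q UMIs, both chosen after seeing the data like the omission of shallow clusters, gave 0 calls in gated cells. A threshold of 8 was not fitted for gated cells, which then numbered 6, 1 and 7 in HFD samples. With 7 to 26 gated cells a sample, a gene at 20 CPM rests on few UMIs.

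Samples of the same number deviated from their diet means with correlations of -0.29, 0.06 and -0.06. Those of unlike number had -0.19 to 0.26. Deviations from a mean of 3 samples depend on one another, so this cannot tell whether samples of the same number were handled together. The fit with a replicate block gave 0 calls in gated and 271 in C1q+ cells, and the exact sign test of paired shares gave differences of -4.08 and -21.5 points with p = 0.25, the smallest possible with 3 pairs.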

Other observations

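Of 13 measured genes of prostaglandin and leukotriene metabolism other than Ptgs2, 0 were higher than in C1q+ cells in all 5 samples and 2 were lower, with a median log2 ratio of 0.09. Over all genes 5.28% were higher and 6.17% lower, so a list of this size shows nothing apart from them. The 2 lower ones were Hpgd, which encodes the prostaglandin-degrading dehydrogenase, at 36.9 ± 28.1 against 99.5 ± 39.1 CPM, and Hpgds, the prostaglandin D2 synthase gene, at 21.4 ± 20.3 against 57.1 ± 43.2 CPM. Ptges, the inducible prostaglandin E2 synthase gene, averaged 9.23 ± 9.71 CPM in the gated and 1.57 ± 2.31 CPM in the C1q+ cells. It was listed at 0 in the gated cells of control 3, HFD 2 and HFD 3.

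Receptor genes for interleukin-6 were low in both classes. Il6ra averaged 26.7 ± 10.2 CPM in the gated and 38.2 ± 7.23 CPM in the C1q+ cells, and Il6st, the shared signalling chain, 25.6 ± 11.3 and 31.1 ± 9.74 CPM. Each was lower in the gated cells in 4 of 5 samples. Slc7a11, found in 31 gated cells, was 116, 133 and 31.8 CPM in control 1 to 3 and 30.3, 94.2 and 53.0 CPM in HFD 1 to 3, above the C1q+ cells of the same sample each time.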
